A study of Danio rerio with 16 samples.

Results

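At 7 days after cryoinjury of the zebrafish heart, mCherry-positive endothelial cells were compared with the cells that carried neither reporter. The comparison took in every gene and used 10 of the study's 16 libraries. All fish were adults of 3 to 9 months with both transgenes: kdrl:mCherry, in which the promoter of the VEGF receptor gene kdrl drives a red protein in endothelium and endocardium, and postnb:citrine, in which a periostin promoter drives a yellow one. Cryoinjury is local damage of the ventricle by cold. Apexes of 3 to 5 hearts made up a sample, were dissociated with trypsin, and were sorted by fluorescence. The 4 mCherry-positive libraries carried the pool numbers 5, 6, 7 and 9, and the 6 libraries negative for both reporters, called double-negative here, carried 5 to 10, so that 4 pool numbers had both sorts. The remaining 6 libraries, 3 of mCherry-positive cells from uninjured hearts and 3 of citrine-positive cells at 7 days, entered the model only for its estimate of spread. The double-negative sort is defined by what it lacks and is a mixture of cell types. Values are TPM, transcripts scaled to a fixed library total, which are adjusted for gene length.

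Endothelial cells line blood vessels, and the endocardium, a related layer, lines the heart chambers. Both are known for receptors of vascular endothelial growth factor (VEGF) and angiopoietins, for VE-cadherin junctions, and for ETS, SOX and KLF transcription factors that maintain their identity. In the regenerating zebrafish heart, vessels and endocardium respond to injury early and signal to neighbouring muscle and epicardium. The rest of an injured apex holds cardiomyocytes, fibroblasts, epicardium, mural cells, leukocytes and red cells, which in fish are nucleated and carry RNA.

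The sort was checked against defining markers. The reporter gene kdrl (ENSDARG00000105215) had 266, 248, 159 and 183 TPM in mCherry-positive pools 5, 6, 7 and 9, and 24.0 to 57.0 TPM with a median of 33.1 in the 6 double-negative libraries. Its log2 fold change, on log2(TPM + 1), was 2.55 ± 0.31 (estimate ± SE, adjusted p = 3.99e-05, limma). No double-negative library reached the lowest mCherry-positive one. The VE-cadherin gene cdh5 (ENSDARG00000075549) had 422, 401, 214 and 294 TPM against 30.8 to 114 TPM with a median of 73.2 (2.25 ± 0.36, adjusted p = 0.000484), again without overlap. In what follows, values in parentheses after a gene are this log2 fold change, mCherry-positive minus double-negative, ± SE, with the adjusted p of limma, and 4 values in a row are mCherry-positive pools 5, 6, 7 and 9 in that order. A mean TPM followed by ± carries the standard deviation between the libraries of its group, not an SE. The pool as a block means below an alternative fit with the pool number as a fixed term. With the pool as a random term instead, 0 calls of named genes were lost. The endocardial transcription factor gene NFATC1 overlapped between the sorts, at 55.0, 43.9, 20.9 and 62.8 TPM against 15.6 to 42.2 TPM with a median of 20.2 (0.85 ± 0.35, adjusted p = 0.136).

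Markers of other cells were lower in the mCherry-positive libraries but not absent. The fibroblast and epicardial factor TCF21 was listed at 0 in 3 of the 4 mCherry-positive libraries and at 0.53 TPM in pool 7, against 20.7 to 47.8 TPM with a median of 37.6 (-5.02 ± 0.36, adjusted p = 8.99e-08). The leukocyte antigen gene ptprc (CD45) had 30.6, 13, 7.06 and 39.9 TPM against 119 to 228 TPM with a median of 150.4 (-2.97 ± 0.40, adjusted p = 0.000104). The myosin light chain gene MYL7 of cardiomyocytes had 64.9, 33.6, 58.9 and 18.7 TPM against 189.9 to 508 TPM with a median of 326 (-2.96 ± 0.59, adjusted p = 0.00292). The alpha globin gene hbaa1 had 38.2, 30.1, 145 and 3.46 TPM against 1678 to 20602 TPM with a median of 5287 (-7.32 ± 0.88, adjusted p = 3.63e-05), a log2 fold change that was -8.09 without mCherry-positive pool 7 and -6.41 without mCherry-positive pool 9. The periostin ID ENSDARG00000104267 had 0.280, 18.9, 11.7 and 36.3 TPM against 202 to 426 TPM with a median of 273 (-4.79 ± 0.62, adjusted p = 7.05e-05), and its log2 fold change was -3.78 without mCherry-positive pool 5 and -5.40 without mCherry-positive pool 9. The other POSTN ID, ENSDARG00000043806, had 66.7, 97.1, 55.3 and 407 TPM against 15.0 to 251 TPM with a median of 83.4 (0.53 ± 0.71, adjusted p = 0.709), so that the sorts overlapped. For TCF21, ptprc, MYL7, hbaa1 and the first POSTN ID, every mCherry-positive library lay below every double-negative one.

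**Figure D1:**
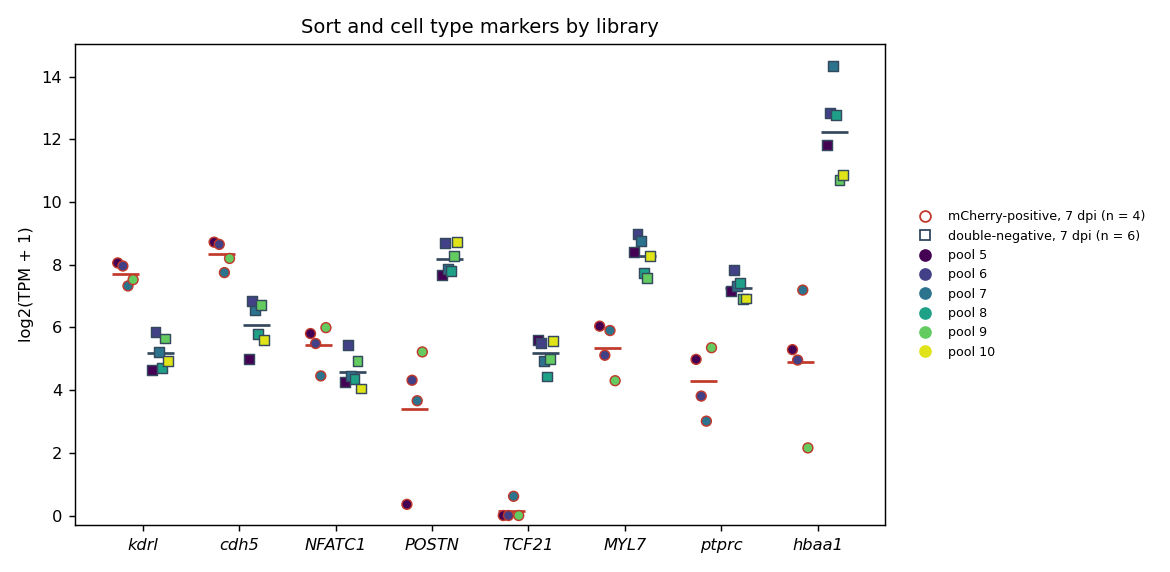
Level of 8 marker genes, as log2(TPM + 1), in each of the 4 mCherry-positive (circles) and 6 double-negative (squares) libraries, coloured by pool number, with a bar at each group's mean; POSTN is ENSDARG00000104267. The groups lie apart for kdrl, cdh5, POSTN, TCF21, MYL7, ptprc and hbaa1 and overlap for NFATC1.

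Endothelial transcripts were also present in the double-negative libraries. In the 4 pools with both sorts, the double-negative library held 9.01%, 23.0%, 22.9% and 26.8% of the kdrl level of the mCherry-positive library with the same pool number (pools 5, 6, 7 and 9). For cdh5 these shares were 7.30%, 28.3%, 43.0% and 35.6%, and for the transcription factor gene ERG 4.4%, 20.5%, 30.5% and 25.1%. Pool 5 had the lowest share for each of these 3 genes. These shares use unscaled TPM. The median-of-ratios size factors, by which that scaling divides a library, were 1.56 for mCherry-positive and 0.764 for double-negative pool 5. In that order they were 1.37 and 1.44 in pool 6, 0.830 and 1.07 in pool 7, and 1.11 and 1.06 in pool 9. Unscaled shares of pool 5 thus come out lower than scaled ones would, for any gene. Whether pool 5 differs in endothelial content was not tested. Bulk values cannot tell fewer endothelial cells from less RNA per cell, so the fold changes below describe sorted fractions.

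Between 12111 and 16854 gene IDs reached 1 TPM per library, and the 20 most abundant IDs held 29.4% to 64.7% of the TPM. The ID si:dkeyp-3b12.8, with its neighbour in name si:dkeyp-3b12.11, took 25.7% to 32.8% of the TPM in each of the 3 compared libraries from pools 9 and 10, against a maximum of 2.09% over the 7 from pools 5 to 8. The comparison was therefore repeated within pools 5 to 8, with 1908 calls, 701 higher and 1207 lower. Of the 165 called genes named below and in the closing section, 150 passed there too, where a gene that the filter removed there would count as passed. The 15 that did not were ETS1 (adjusted p = 0.153), GATA2 (0.0752), GATA5 (0.0639), ID1 (0.0506), NRG1 (0.0785), 1 CXCR4 ID (0.191), ephb4a (0.0845), 1 ADM ID (0.0799), plxnd1 (0.0836), FABP3 (0.0744), LOXL1 (0.0652), rgs5b (0.0861), mbpb (0.116), mt-atp8 (0.0818) and MT-CYB (0.0715). Named genes that passed there and not over all pools were HEY2 (0.0432), HEY1 (0.00325), krt18a.1 (0.031), nppb (0.034), SPI1 (0.0295), il1b (0.00332), FECH (0.05), hsp70l (0.00315) and hsp70.1 (0.00307). Pools 9 and 10 held 1 mCherry-positive library, too few for a fit of their own. Sequencing depth is unknown, since TPM keeps no read counts, so no counting error is given. Each library is a separate sorted fraction, and p-values rest on the spread within groups over all 16 libraries. Libraries with the same pool number may share hearts. The reported fit leaves this out, and the fits with the pool as a block take it in.

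Of 19039 genes tested, 2083 (10.9%) were called at an adjusted p under 0.05, with 773 (4.06%) higher and 1310 (6.88%) lower in mCherry-positive cells. At an unadjusted p under 0.05 there were 4489. The lower calls were also the larger ones: their median log2 fold change was -2.07, with 201 of the 1310 beyond 3 in size and 27 beyond 5. The higher calls had a median of 1.70, with 10 of 773 beyond 3 and 0 beyond 5. The groups did not overlap in 1946 genes (10.2% of those tested), 718 with mCherry-positive libraries above (3.77%) and 1228 with them below (6.45%). The median log2 fold change over all tested genes was -0.10, and -0.25 after median-of-ratios scaling, a shift of the median of 0.15. Well expressed genes moved further down, such as COL4A1 from 0.18 to -0.074 and SPI1 from -1.85 to -2.11. With that scaling 717 were higher and 1801 lower, and 6 genes called and named here did not pass: ETS1 (adjusted p = 0.104), ephb4a (0.0542), 1 ADM ID (0.0511), plxnd1 (0.0819), apoeb (0.0749) and MCM4 (0.0629). Without mCherry-positive pool 6 the higher calls numbered 511.

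**Figure D2:**
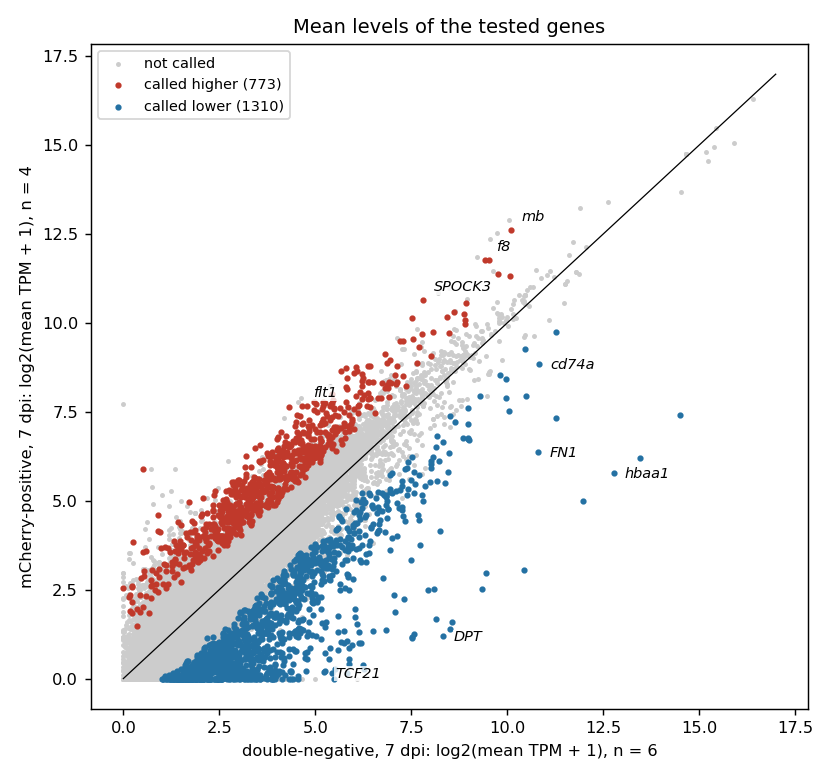
Mean level of each tested gene, as log2(mean TPM + 1), in double-negative (x axis, n = 6) and mCherry-positive (y axis, n = 4) libraries, with the line of equality; red marks the 773 genes called higher in mCherry-positive libraries and blue the 1310 called lower. The lower calls reach farther from the line than the higher ones, and hbaa1, FN1 (ENSDARG00000006526), DPT and TCF21 lie among them.

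Receptors for VEGF and angiopoietins were higher in mCherry-positive cells. Of 11 tested members of the VEGF and Tie receptor list, 6 were called higher and 1 lower, with a median log2 fold change of 1.69 against -0.10 over all genes. The shares over all tested genes, 4.06% higher and 6.88% lower, are the ones to set beside this and each later list count. The 6 higher calls included the phosphatase gene ptprb and the reporter gene kdrl, whose promoter drove the protein used for sorting. The rise of kdrl was thus set by the sort, and its part in the count and median is no separate evidence. The decoy and signalling receptor gene flt1 (ENSDARG00000019371) had 241, 278, 225 and 66.6 TPM against 11.9 to 40.1 TPM with a median of 22.4 (2.94 ± 0.43, adjusted p = 0.000232), and pool 9 was the lowest of the 4. KDR (ENSDARG00000017321), which encodes the other VEGF receptor of the kdrl type, had 234, 198, 224 and 102 TPM against 13.6 to 63.2 TPM with a median of 35.5 (2.47 ± 0.47, adjusted p = 0.00183). In both genes all 4 mCherry-positive libraries lay above all 6 double-negative ones. Among the Tie genes, TIE1, an orphan receptor that modulates Tie2, had 69.3, 70.8, 50.6 and 89.7 TPM against 11.05 to 34 TPM with a median of 21.4 (1.69 ± 0.32, adjusted p = 0.00183). The angiopoietin receptor gene tek (Tie2) had 23.3, 15.8, 35.5 and 35.9 TPM against 2.27 to 13.7 TPM with a median of 6.13 (1.89 ± 0.42, adjusted p = 0.00624), and the phosphatase gene ptprb, which acts on Tie2, had 116 ± 27.6 against 22.9 ± 8.58 TPM (n = 4 and 6) (2.33 ± 0.33, adjusted p = 0.00015). None of the 3 overlapped between the sorts. The exception was the semaphorin and VEGF co-receptor NRP2 (ENSDARG00000096546), at 0.420, 0, 0.710 and 1.23 TPM against 2.49 to 9.55 TPM with a median of 4.87 (-2.01 ± 0.43, adjusted p = 0.00447). The neuropilins nrp1b (0.47 ± 0.32, adjusted p = 0.411) and NRP1 (ENSDARG00000102153) (0.19 ± 0.42, adjusted p = 0.833) did not pass.

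Genes of endothelial junctions and surface showed the same direction. Of 23 tested members 11 were higher and 0 lower, with a median of 1.52. The transmembrane protein gene heg1, needed in zebrafish for the integrity of heart and vessels, had 127, 172, 163 and 103 TPM against 13.1 to 32.8 TPM with a median of 25.5 (2.57 ± 0.33, adjusted p = 7.08e-05). The adaptor gene she had 303, 234, 196 and 140.4 TPM against 16.9 to 64.0 TPM with a median of 32.3 (2.64 ± 0.41, adjusted p = 0.000396), and rasip1, whose product acts at junctions during lumen formation, had 121, 109, 85.5 and 55.5 TPM against 10.1 to 29.7 TPM with a median of 15.8 (2.38 ± 0.34, adjusted p = 0.000193). All 3 were higher in each of the 4 pools with both sorts, and their groups did not overlap. Except among the transcription factors, and unless said otherwise, called members named in this and later lists were those with the lowest adjusted p. A lack of overlap in them follows in part from that choice and is no separate evidence. The cerebral cavernous malformation gene CCM2 (0.71 ± 0.38, adjusted p = 0.275) and the adhesion molecule gene MCAM (0.54 ± 0.31, adjusted p = 0.311) did not pass, with mean levels of 56.3 ± 38.56 against 31.3 ± 15.2 TPM and 23.6 ± 8.87 against 15.3 ± 2.82 TPM.

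Among endothelial transcription factors, 13 of 24 tested were higher and 0 lower, with a median of 1.51. The ETS factor ERG, a regulator of VE-cadherin, had 252, 214, 106 and 182 TPM against 11 to 45.6 TPM with a median of 28.2 (2.67 ± 0.41, adjusted p = 0.000322). FLI1 (ENSDARG00000054632), another ETS factor, had 381, 470.1, 217 and 219 TPM against 37.5 to 142 TPM with a median of 84.2 (2.04 ± 0.40, adjusted p = 0.00223). ETS1 (ENSDARG00000024431) had 23.9, 37.7, 35.5 and 38.1 TPM against 5.88 to 23.6 TPM with a median of 13.2 (1.42 ± 0.43, adjusted p = 0.0415). These groups did not overlap, though for ETS1 the lowest mCherry-positive value, in pool 5, lay close to the highest double-negative one. The call of ETS1 was lost without mCherry-positive pool 6, 7 or 9 or double-negative pool 5, 9 or 10 (adjusted p = 0.0685 to 0.103).

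The shear-responsive factors klf2b and klf2a were higher as well, at 137 ± 70.5 against 27.2 ± 15.8 TPM (2.21 ± 0.46, adjusted p = 0.0036) and 124 ± 35.18 against 46.3 ± 18.1 TPM (1.45 ± 0.34, adjusted p = 0.00845). In both, 1 mCherry-positive library, pool 9, fell within the double-negative range. The SOX factor SOX7 had 162, 115, 31.6 and 33.4 TPM against 8.12 to 32.2 TPM with a median of 11.2 (2.23 ± 0.51, adjusted p = 0.00762), and sox18, of the same subfamily, 105, 40.5, 30.3 and 14.7 TPM against 8.29 to 22.6 TPM with a median of 11.4 (1.57 ± 0.44, adjusted p = 0.0266). Pool 5 was the highest mCherry-positive library in both. The call of sox18 was lost without mCherry-positive pool 5 or 6 or double-negative pool 8 or 9 (adjusted p = 0.0527 to 0.118) and with the pool as a block (adjusted p = 0.0735).

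The forkhead genes FOXC1 (ENSDARG00000091481) (2.44 ± 0.37, adjusted p = 0.00029), foxc1b (1.68 ± 0.39, adjusted p = 0.0077) and FOXO1 (ENSDARG00000061549) (1.74 ± 0.40, adjusted p = 0.0077) were higher, with levels of 95.5 ± 20.8 against 18.4 ± 9.65 TPM, 47.7 ± 14.2 against 15.3 ± 7.75 TPM and 25.1 ± 9.46 against 6.72 ± 2.52 TPM. So were the repressor gene BCL6B (2.04 ± 0.43, adjusted p = 0.00416) and NR2F2 (COUP-TFII), a factor of venous identity (2.05 ± 0.31, adjusted p = 0.000325). NR2F2 was at 35, 41.7, 32.3 and 40.4 TPM against 5.90 to 14.6 TPM with a median of 6.50. GATA2 (ENSDARG00000059327) had 25.5, 10.3, 5.90 and 17.9 TPM against 0.820 to 5.84 TPM with a median of 3.38 (1.74 ± 0.51, adjusted p = 0.0317). Its call was lost without mCherry-positive pool 5, 6 or 9 or double-negative pool 5, 7, 8 or 10 (adjusted p = 0.0502 to 0.115) and with the pool as a block (adjusted p = 0.0816). The ubiquitous factor ets2 (-0.25 ± 0.27, adjusted p = 0.637) and a second FOXO1 ID, ENSDARG00000099555, (0.31 ± 0.65, adjusted p = 0.831) did not pass. The Notch targets HEY2 (1.70 ± 0.57, adjusted p = 0.0649) and HEY1 (-2.03 ± 0.76, adjusted p = 0.1), named after their values were seen, did not pass. With the pool as a block HEY1 was called lower (adjusted p = 0.0324).

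**Figure D3:**
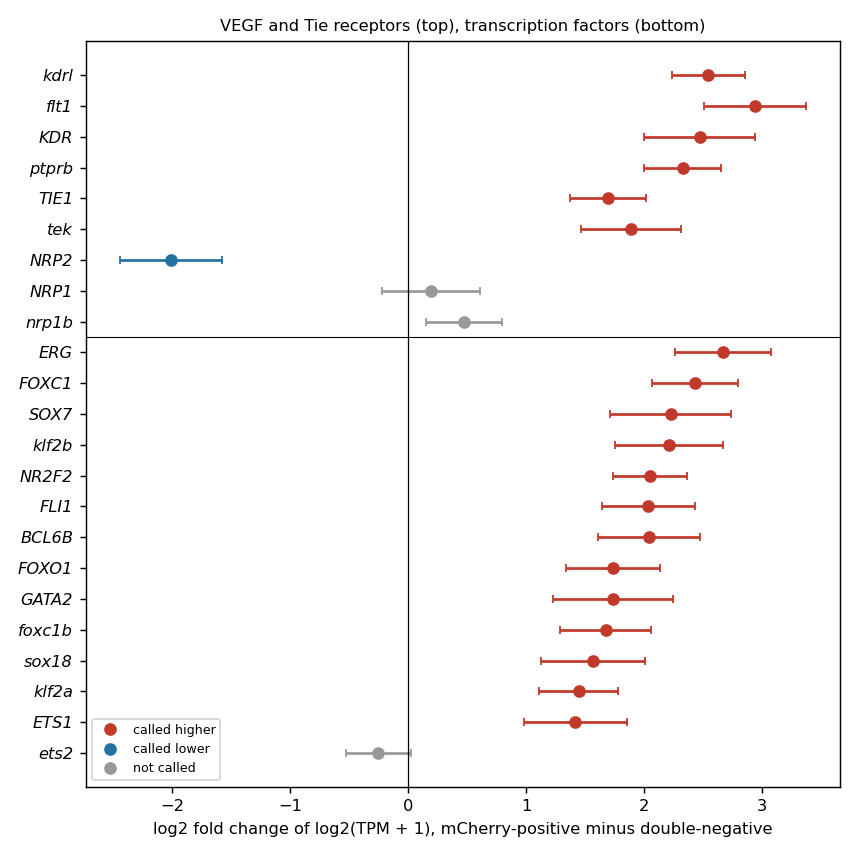
Log2 fold change of log2(TPM + 1), mCherry-positive minus double-negative, with the model's standard error as bars, for 9 VEGF and Tie receptor genes (above the line) and 14 transcription factor genes (below it); red points were called higher, blue lower, and grey were not called. All 13 called transcription factors lie between 1.42 and 2.67, and NRP2 is the only blue point.

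Endocardial, Notch and BMP genes were called in both directions, but most of the lower calls were lost without 1 of several libraries. Within pools 5 to 8 the lower calls numbered 0 in the endocardial, 3 in the Notch and 2 in the BMP list. Whether such counts exceed the 6.88% called lower over all tested genes was not tested. Of 15 endocardial genes tested 4 were higher and 2 lower (median 0.47). NOTCH1 (ENSDARG00000052094), a receptor active in endocardium and arteries, had 357, 281, 271 and 256 TPM against 37.8 to 76.8 TPM with a median of 52.1 (2.42 ± 0.28, adjusted p = 2.40e-05), and no library overlapped. A second NOTCH1 ID, ENSDARG00000103554, had 135, 20.3, 28.3 and 107 TPM against 29.4 to 125 TPM with a median of 52.9 (-0.03 ± 0.63, adjusted p = 0.984). These 4 values lay on both sides of the double-negative median. ALDH1A2, the retinoic acid synthesis enzyme that injured zebrafish endocardium and epicardium are known to express, had 333, 214, 102 and 138 TPM against 29.7 to 103 TPM with a median of 48.4 (1.75 ± 0.38, adjusted p = 0.00502). Pool 7, at the lower end, fell just inside the double-negative range. GATA5 (1.29 ± 0.32, adjusted p = 0.0137), at 74.1 ± 14.7 against 31.6 ± 13.1 TPM, and klf2a made up the other higher calls. The heart GATA factor gata4 (1.49 ± 0.53, adjusted p = 0.0798) did not pass. The lower endocardial calls, named after their values were seen, were the BMP target ID1 (-1.80 ± 0.53, adjusted p = 0.0351) and the growth factor NRG1 (-1.50 ± 0.42, adjusted p = 0.0261). NRG1 was listed at 0 in all 4 mCherry-positive libraries and averaged 2.25 TPM in double-negative ones. ID1 lost its call without mCherry-positive pool 6 or 7 or double-negative pool 5, 6 or 7 (adjusted p = 0.0537 to 0.154), and was at -1.17 without mCherry-positive pool 6. NRG1 lost its call without mCherry-positive pool 5, 6 or 7 (adjusted p = 0.0576 to 0.0621) and with the pool as a block (adjusted p = 0.0639).

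Of 22 Notch pathway and arterial genes 7 were higher and 3 lower (median 0.14). The Notch ligand dll4, a marker of arteries and tip cells, had 354, 264, 146 and 76.1 TPM against 12.10 to 61.4 TPM with a median of 27.2 (2.65 ± 0.43, adjusted p = 0.000554). The ligand jag2a had 12.81, 16.1, 11.8 and 7.94 TPM against 0.590 to 3.99 TPM with a median of 1.56 (2.28 ± 0.44, adjusted p = 0.00203). Neither overlapped between the sorts. The chemokine receptor CXCR4 (ENSDARG00000041959), which leukocytes also carry, was lower, at 10.5, 2.08, 0.990 and 27.7 TPM against 50.8 to 136 TPM with a median of 67.6 (-3.50 ± 0.60, adjusted p = 0.000814), and at -4.20 without mCherry-positive pool 9. The other lower calls, named after their values were seen, were a second CXCR4 ID, ENSDARG00000057633, (-2.12 ± 0.57, adjusted p = 0.0198) and the receptor gene notch2 (-0.99 ± 0.31, adjusted p = 0.0445). This CXCR4 ID lost its call without mCherry-positive pool 6 or 9 (adjusted p = 0.0624 to 0.0859) and was at -2.86 without mCherry-positive pool 5, and notch2 lost its call without mCherry-positive pool 5, 7 or 9 or double-negative pool 5, 6, 7 or 8 (adjusted p = 0.0755 to 0.109). Without mCherry-positive pool 9 the list had 1 lower call. The arterial ligand EFNB2 (ENSDARG00000074050), at 42.4 ± 25.4 against 12.2 ± 7.5 TPM, did not pass (1.69 ± 0.57, adjusted p = 0.0654) but did with the pool as a block (adjusted p = 0.0426).

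Of 28 BMP and TGF-beta genes 7 were higher and 3 lower (median 0.59). The ligand BMP10, a cardiac BMP that signals through ALK1, had 101, 71.8, 61.5 and 104 TPM against 8.08 to 22.3 TPM with a median of 15.3 (2.40 ± 0.32, adjusted p = 8.08e-05). The receptors BMPR1A (ENSDARG00000019728), at 37.3 ± 13.8 against 7.96 ± 2.96 TPM (2.1 ± 0.36, adjusted p = 0.000861), and BMPR2 (ENSDARG00000020057), at 33.4 ± 11.4 against 7.99 ± 4.01 TPM (1.99 ± 0.36, adjusted p = 0.00124), were higher too. The gene acvrl1, named for the endothelial receptor ALK1, ran the other way, at 7.18, 5.27, 4.47 and 13.4 TPM against 31.8 to 49.2 TPM with a median of 36.0 (-2.27 ± 0.42, adjusted p = 0.00141). In all of BMP10, BMPR1A, BMPR2 and acvrl1 the groups lay apart. Besides acvrl1 and ID1 the signal transducer SMAD1, named after its values were seen, was lower (-1.29 ± 0.37, adjusted p = 0.0293), a call lost without mCherry-positive pool 5, 6 or 7 or double-negative pool 5, 6 or 7 (adjusted p = 0.0539 to 0.091). Without mCherry-positive pool 6 or 7 or double-negative pool 5, 6 or 7 the lower calls of this list numbered 1. The receptor TGFBR2 (ENSDARG00000059363) (0.92 ± 0.39, adjusted p = 0.149) and the target ID3 (0.19 ± 0.38, adjusted p = 0.821) did not pass.

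Endothelial G protein-coupled receptor genes were higher in 6 of 15 tested and lower in 0 (median 1.01). The chemokine scavenger ACKR4 (ENSDARG00000040133) had 68.9, 69.0, 59.1 and 48.0 TPM against 6.83 to 18.9 TPM with a median of 17.5 (2.03 ± 0.32, adjusted p = 0.000447). The adrenomedullin receptor partner ramp2 had 188, 276, 176 and 132 TPM against 28.4 to 70.0 TPM with a median of 48.3 (1.96 ± 0.32, adjusted p = 0.000614), and the thrombin receptor F2R (ENSDARG00000059507) 239, 95.5, 61.3 and 67.0 TPM against 13.4 to 47.3 TPM with a median of 18 (2.21 ± 0.40, adjusted p = 0.0013). These 3 did not overlap between the sorts. The CXCL12 scavenger ACKR3 was at 76.7 ± 55.2 against 15.6 ± 6.4 TPM (1.98 ± 0.42, adjusted p = 0.00401), with pool 9 inside the double-negative range. A second F2R ID, ENSDARG00000060012, (1.01 ± 0.38, adjusted p = 0.096) and the sphingosine-1-phosphate receptor S1PR1 (0.51 ± 0.44, adjusted p = 0.534) did not pass.

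Among venous and lymphatic genes 4 of 13 were higher and 0 lower (median 0.74). The scavenger receptor gene stab1 had 89.0, 67.3, 45.2 and 87.6 TPM against 5.18 to 26.3 TPM with a median of 15.2 (2.25 ± 0.39, adjusted p = 0.000931). With NR2F2 above, the ephrin receptors ephb4b (1.54 ± 0.36, adjusted p = 0.00894) and ephb4a (1.34 ± 0.36, adjusted p = 0.0207), markers of veins, completed the calls, at 14.5 ± 3.57 against 4.52 ± 2.22 TPM and 18.8 ± 7.80 against 6.55 ± 2.75 TPM. The call of ephb4a was lost without mCherry-positive pool 5, 7 or 9 (adjusted p = 0.0544 to 0.066) and with the pool as a block (adjusted p = 0.0696). The hyaluronan receptor lyve1a (0.57 ± 0.68, adjusted p = 0.672) and the growth factor VEGFC (0.69 ± 0.82, adjusted p = 0.674) did not pass, and lyve1a was listed at 0 in mCherry-positive pool 7.

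Genes of angiogenic sprouting moved in both directions, with ligands among the lower ones. Of 22 genes of sprouting 3 were higher and 6 lower, with a median of 0.15. VEGFA (ENSDARG00000103542), the ligand of the receptors above, had 8.88, 2.59, 0.860 and 1.86 TPM against 15.7 to 30.3 TPM with a median of 20.5 (-2.59 ± 0.45, adjusted p = 0.000948). The Tie2 ligand ANGPT1 had 0, 0.230, 0 and 0.720 TPM against 1.87 to 4.89 TPM with a median of 3.10 (-1.76 ± 0.41, adjusted p = 0.00787). Both ligands lay below every double-negative library in every mCherry-positive one. Of the peptide hormone adrenomedullin, 1 ID (ADM, ENSDARG00000069027) was lower at 1.19 ± 2.11 against 16.4 ± 14 TPM (-2.94 ± 0.65, adjusted p = 0.00613) with overlap. The 3 higher calls, named after their values were seen, were a second ADM ID (ENSDARG00000015263) (1.26 ± 0.38, adjusted p = 0.039), the semaphorin receptor plxnd1 (1.24 ± 0.37, adjusted p = 0.0359) and the surface sialomucin cd34 (1.30 ± 0.34, adjusted p = 0.0159). None of these 3 was called with the pool as a fixed block (adjusted p = 0.0563, 0.0969 and 0.0513 in that order). All 3 kept their call with the pool as a random block. Each lost its call without 1 of several libraries. The second ADM ID lost it without mCherry-positive pool 5 or 6 or double-negative pool 5, 7 or 8 (adjusted p = 0.0635 to 0.128), plxnd1 without mCherry-positive pool 5, 6, 7 or 9 or double-negative pool 7 or 8 (adjusted p = 0.0505 to 0.0903), and cd34 without mCherry-positive pool 5 or 6 (adjusted p = 0.057 to 0.0615). The tip cell gene ESM1 (1.15 ± 0.48, adjusted p = 0.15) and RGCC (0.55 ± 0.48, adjusted p = 0.541) did not pass.

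Genes of caveolae, the membrane pits that endothelium is rich in, and of lipid uptake were higher in 6 of 15 tested and lower in 1 (median 0.53). The caveolin gene CAV1 had 342, 344, 146 and 213 TPM against 46.0 to 149 TPM with a median of 81.6 (1.68 ± 0.35, adjusted p = 0.00407), with pool 7 just inside the double-negative range. The caveolar coat genes under the symbol CAVIN2 were ENSDARG00000071196, at 686, 566, 378 and 264 TPM against 56.0 to 208 TPM with a median of 91.4 (2.09 ± 0.38, adjusted p = 0.00124), and ENSDARG00000027611, at 43.2 ± 12.7 against 6.72 ± 3.85 TPM (2.67 ± 0.45, adjusted p = 0.000725). Lipoprotein lipase, LPL, which frees fatty acids at the vessel wall, had 295, 222, 107 and 179 TPM against 20.4 to 52.2 TPM with a median of 35.3 (2.44 ± 0.40, adjusted p = 0.000611). The coat gene CAVIN1 (ENSDARG00000059362) (0.53 ± 0.35, adjusted p = 0.388) and the fatty acid carrier FABP7 (0.66 ± 0.34, adjusted p = 0.25) did not pass. The lower gene, named after its values were seen, was the muscle fatty acid carrier FABP3 (-3.59 ± 0.85, adjusted p = 0.0091), at -4.79 without mCherry-positive pool 5 and -2.81 without mCherry-positive pool 6.

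Coagulation genes were called in both directions. Of 15 genes of coagulation and vessel tone 5 were higher and 3 lower (median 1.61). The coagulation factor gene f8 (ENSDARG00000101385) had 3517, 4071, 2850.4 and 3607 TPM against 352 to 1048 TPM with a median of 604 (2.45 ± 0.39, adjusted p = 0.000413). Its carrier, von Willebrand factor (vwf), had 912, 713, 455 and 785 TPM against 56.4 to 251 TPM with a median of 131 (2.41 ± 0.39, adjusted p = 0.000547). In both the groups did not overlap. The prostaglandin synthase PTGS2 (ENSDARG00000004539) had 242, 344, 146 and 139 TPM against 32.1 to 86.4 TPM with a median of 51.0 (1.94 ± 0.35, adjusted p = 0.00131). A second PTGS2 ID (ENSDARG00000010276) (2.00 ± 0.47, adjusted p = 0.00901) and the anticoagulant TFPI (1.76 ± 0.41, adjusted p = 0.00843), both named after their values were seen, were higher too. Factor V, f5, was lower, at 0, 0.540, 0.210 and 0.500 TPM against 5.70 to 13.8 TPM with a median of 8.54 (-2.91 ± 0.37, adjusted p = 6.80e-05). So were, also named after their values were seen, the prostacyclin synthase PTGIS (-2.41 ± 0.63, adjusted p = 0.0182) and the plasminogen activator PLAT (-1.79 ± 0.44, adjusted p = 0.012). PTGIS lost its call without mCherry-positive pool 6 or 7 (adjusted p = 0.0767 to 0.077) and was at -3.07 without mCherry-positive pool 9, and PLAT lost its call without mCherry-positive pool 5 (adjusted p = 0.0518). ANXA2 (0.81 ± 0.37, adjusted p = 0.192) did not pass.

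The 12 largest rises among called, well expressed genes without overlap were led by ALPL, an alkaline phosphatase, with 115, 65.8, 73.3 and 48.5 TPM against 1.63 to 15.6 TPM with a median of 8.12 (3.27 ± 0.47, adjusted p = 0.000173). They held further vascular genes: flt1, the adhesion molecule pecam1b (2.74 ± 0.50, adjusted p = 0.00132) and EPAS1 (ENSDARG00000057671), the hypoxia-inducible factor HIF-2 alpha, with 291, 282, 168 and 137 TPM against 17.1 to 56.8 TPM with a median of 27.8 (2.84 ± 0.34, adjusted p = 3.63e-05). The erythropoietin gene epoa was at 741, 545, 255 and 148 TPM against 33.5 to 111 TPM with a median of 37.6 (2.82 ± 0.60, adjusted p = 0.00448). The matrix proteoglycan gene SPOCK3 was the most abundant of the 12, with 1987, 2157, 918 and 1310.2 TPM against 109 to 377 TPM with a median of 214 (2.86 ± 0.41, adjusted p = 0.000183). In each of these genes the lowest mCherry-positive library exceeded the highest double-negative one, which the choice of the 12 required. The others were the kinase wnk3 (2.88 ± 0.43, adjusted p = 0.000241), the phospholipase PLA2G4A (ENSDARG00000017141) (2.73 ± 0.46, adjusted p = 0.000686), the vesicle protein sytl4 (2.79 ± 0.47, adjusted p = 0.000677), limch1b (3.03 ± 0.51, adjusted p = 0.000686), cldc1 (2.83 ± 0.44, adjusted p = 0.000349) and the non-coding lnc.30 (3.04 ± 0.73, adjusted p = 0.0107). The levels of cldc1 were 683, 547, 240.4 and 135 TPM against 26.4 to 91.0 TPM with a median of 43.0, with the lowest mCherry-positive value in pool 9, as for EPAS1, epoa, wnk3 and flt1.

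Basement membrane genes divided. Of 16 tested 2 were higher and 3 lower (median -0.21). The proteoglycans agrin (AGRN), with 162, 158, 121 and 129.9 TPM against 24.1 to 50.9 TPM with a median of 31.4 (2.02 ± 0.32, adjusted p = 0.000439), and perlecan (HSPG2), with 90.4, 87.3, 64.3 and 69.5 TPM against 18.4 to 45.9 TPM with a median of 27.6 (1.36 ± 0.28, adjusted p = 0.00324), were higher without overlap. The collagen XVIII gene col18a1a was lower, at 1.26, 0.090, 1.56 and 2.51 TPM against 18.1 to 49.8 TPM with a median of 25.4 (-3.69 ± 0.42, adjusted p = 2.07e-05). Nidogen 1 (NID1, ENSDARG00000103129) was lower at 26.7 ± 8.61 against 73.5 ± 20.7 TPM (-1.44 ± 0.37, adjusted p = 0.0147), a call lost without mCherry-positive pool 5 (adjusted p = 0.0644). The laminin LAMB2, named after its values were seen, was lower (-1.37 ± 0.44, adjusted p = 0.0491) and lost its call without mCherry-positive pool 5, 6 or 7 or double-negative pool 5, 6, 7, 8, 9 or 10 (adjusted p = 0.054 to 0.161) and with the pool as a block (adjusted p = 0.0685). Collagen IV (COL4A1) (0.18 ± 0.35, adjusted p = 0.807) and SPARC (-0.98 ± 0.36, adjusted p = 0.0967) did not pass, and COL4A1 changed sign with median-of-ratios scaling, under which 6 members were lower. Without mCherry-positive pool 5 the lower calls numbered 1.

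Genes of fibroblasts and fibrillar matrix were lower in 10 of 22 tested and higher in 1, with a median of -1.16. Dermatopontin (DPT), a small matrix protein, had 0.290, 0.980, 3.25 and 0.690 TPM against 174 to 505 TPM with a median of 301 (-7.15 ± 0.42, adjusted p = 5.21e-09). Fibronectin (FN1, ENSDARG00000006526), a protein of provisional matrix, had 91.9, 153, 73.1 and 11.2 TPM against 1087 to 3433 TPM with a median of 1492 (-4.79 ± 0.52, adjusted p = 1.27e-05), and its log2 fold change was -4.02 without mCherry-positive pool 9. Collagen XII (COL12A1, ENSDARG00000019601) had 0.10, 3.00, 2.49 and 5.81 TPM against 43.6 to 114 TPM with a median of 55.0 (-4.28 ± 0.42, adjusted p = 3.62e-06). Each of these lay apart between the sorts. Collagen I was not called over all pools: COL1A1 (ENSDARG00000035809) had 122, 154, 107 and 431 TPM against 196 to 614 TPM with a median of 347 (-0.98 ± 0.47, adjusted p = 0.212) and col1a1a 340.2, 325, 229 and 757 TPM against 261 to 856 TPM with a median of 486 (-0.34 ± 0.44, adjusted p = 0.703). Both overlapped with the double-negative libraries, and pool 9 was the highest mCherry-positive library in both. The higher call, named after its values were seen, was the crosslinking enzyme LOXL1 (1.49 ± 0.39, adjusted p = 0.0174), lost without mCherry-positive pool 6 (adjusted p = 0.0561). Of this list's summed level the mCherry-positive libraries held 1224 to 3276 TPM and the double-negative ones 3172 to 8783. After median-of-ratios scaling 15 members were lower.

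Of 13 epicardial genes 7 were lower and 1 higher, the latter ALDH1A2 (median -1.51). The transferrin gene tfa had 0, 2.1, 16.4 and 0.130 TPM against 133 to 394 TPM with a median of 217 (-6.35 ± 0.63, adjusted p = 4.25e-06), and -7.23 without mCherry-positive pool 7. The T-box factor TBX18 had 0, 0.420, 0.120 and 0 TPM against 6.63 to 48.5 TPM with a median of 10.4 (-3.83 ± 0.60, adjusted p = 0.000409) and the tight junction gene CLDN11 (ENSDARG00000020031) 0, 0, 0.210 and 0.270 TPM against 2.04 to 14.2 TPM with a median of 4.42 (-2.44 ± 0.44, adjusted p = 0.00114). TCF21, TBX18 and CLDN11 were thus below 1 TPM in all 4 mCherry-positive libraries. They are among the 7 lower calls of the list, and TCF21 is a factor of fibroblasts too. Their levels alone do not show how much epicardial RNA these libraries held. The keratins krt18a.1 (1.65 ± 0.55, adjusted p = 0.0623) and krt15 (0.33 ± 0.35, adjusted p = 0.627), which other epithelia and endothelia also express, did not pass. With krt18a.1 at 430 TPM in pool 9 and 2528 in pool 5, the list's summed level overlapped, at 936 to 3331 TPM (median 2270) against 834 to 1969 TPM (median 1062).

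Mural and smooth muscle genes were lower in 5 of 15 and higher in 0 (median -0.71). The pericyte gene RGS5 was listed at 0 in 3 mCherry-positive libraries and at 0.47 TPM in pool 9, against 2.21 to 15.1 TPM with a median of 10.4 (-3.08 ± 0.46, adjusted p = 0.000281). The pericyte proteoglycan CSPG4 had 0, 0.070, 0.910 and 0.900 TPM against 5.45 to 17.3 TPM with a median of 8.32 (-2.79 ± 0.41, adjusted p = 0.000218). Smooth muscle actin, acta2, was listed at 0 in pools 5, 6 and 7 and reached 27.6 TPM in pool 9, above the double-negative range of 9.99 to 25 TPM with a median of 16.4 (-2.90 ± 0.74, adjusted p = 0.0151). It lost its call without mCherry-positive pool 5, 6 or 7 (adjusted p = 0.06 to 0.063) and was at -4.11 without mCherry-positive pool 9. The actin-binding TAGLN (ENSDARG00000045408) had 0.400, 4.03, 11.5 and 35.0 TPM against 40.2 to 78.3 TPM with a median of 58.3 (-2.91 ± 0.65, adjusted p = 0.00606), and -2.1 without mCherry-positive pool 5 and -3.67 without mCherry-positive pool 9. The fifth, rgs5b (-1.75 ± 0.54, adjusted p = 0.0445), named after its values were seen, lost its call without mCherry-positive pool 5, 6 or 7 or double-negative pool 6, 7, 8, 9 or 10 (adjusted p = 0.0586 to 0.166) and with the pool as a block (adjusted p = 0.0518). Without mCherry-positive pool 5, 6 or 7 the calls numbered 3. A second TAGLN ID, ENSDARG00000033466, (0.34 ± 0.32, adjusted p = 0.58) and MYH11 (0.09 ± 0.38, adjusted p = 0.918) did not pass.

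Of 18 cardiomyocyte genes tested, 10 were lower and 1 higher (median -2.56). The list's summed level, which includes mb given below, ran the other way with overlap. It was 4202 to 8514 TPM in mCherry-positive libraries (median 7295) and 2034 to 4524 TPM in double-negative ones (median 2614). The troponin I gene TNNI1 (ENSDARG00000052708) had 7.70, 10.9, 15.0 and 2.68 TPM against 73.3 to 334 TPM with a median of 155 (-4.19 ± 0.64, adjusted p = 0.000335). Cardiac troponin C, tnnc1a, had 12.6, 27.6, 16.7 and 3.10 TPM against 89.3 to 198 TPM with a median of 136 (-3.37 ± 0.58, adjusted p = 0.000895), and alpha-actinin, actn2b, 5.48, 7.55, 4.35 and 1.91 TPM against 30.4 to 90.9 TPM with a median of 50.8 (-3.23 ± 0.60, adjusted p = 0.00145). In all 3 the groups lay apart and pool 9 was the lowest mCherry-positive library. The oxygen carrier myoglobin (mb, ENSDARG00000031952) was the higher call, with 7679, 7025, 6531 and 3845 TPM against 745 to 1458 TPM with a median of 1040.5 (2.51 ± 0.46, adjusted p = 0.00136). It thus ranked among the abundant transcripts of the endothelial fraction, where MYL7, the sarcomere gene described with the markers, was at 64.9 TPM or less. The calcium pump atp2a2a (-0.58 ± 0.53, adjusted p = 0.556) and the natriuretic peptide nppb, at 590.2, 442, 106 and 52.7 TPM against 13 to 88.4 TPM with a median of 36.8 (2.51 ± 0.93, adjusted p = 0.0937), did not pass.

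Leukocyte genes were lower in mCherry-positive cells. Of 16 pan-leukocyte genes 13 were lower and 0 higher (median -2.09). The actin regulators CORO1A, with 9.82, 6.58, 1.21 and 20.3 TPM against 46.1 to 78.9 TPM with a median of 61.4 (-2.99 ± 0.53, adjusted p = 0.00105), and WAS, with 22.8, 12.9, 6.89 and 14.4 TPM against 44.5 to 86.7 TPM with a median of 53.6 (-2.06 ± 0.37, adjusted p = 0.00119), lay apart between the sorts. CORO1A was at -2.38 without mCherry-positive pool 7. The myeloid factor SPI1 (-1.85 ± 0.60, adjusted p = 0.0529) and arhgdig (-0.87 ± 0.34, adjusted p = 0.111) did not pass, and SPI1 reached 167 TPM in mCherry-positive pool 5. The list summed to 150.3 to 602 TPM in the mCherry-positive libraries, against 1147 to 1852 TPM in double-negative libraries. The part of this residual leukocyte RNA in the mCherry-positive values was not tested.

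Of 21 macrophage genes 9 were lower and 1 higher (median -1.35). The lysozyme-like lygl1 had 64.7, 75.9, 34.3 and 98.5 TPM against 229.8 to 292 TPM with a median of 253 (-2.0 ± 0.31, adjusted p = 0.000327), and the CSF1 receptor csf1ra, a defining gene of the lineage, 7.87, 7.35, 11.3 and 46.1 TPM against 53.5 to 81.3 TPM with a median of 58.9 (-2.12 ± 0.43, adjusted p = 0.00312). The complement gene c1qc had 20.8, 12.7, 1.52 and 53.3 TPM against 77.6 to 154 TPM with a median of 111 (-3.01 ± 0.61, adjusted p = 0.00297), and -2.18 without mCherry-positive pool 7 and -3.65 without mCherry-positive pool 9. Pool 9 was the highest of the 4 mCherry-positive libraries in each. Of the MFAP4 IDs, a symbol that marks macrophages in zebrafish, ENSDARG00000038683 was lower (-1.68 ± 0.41, adjusted p = 0.0107). The abundant ENSDARG00000090783, at 135 ± 88.3 against 363 ± 124 TPM, did not pass (-1.73 ± 0.59, adjusted p = 0.0698) but did with the pool as a block (adjusted p = 0.0406). The scavenger receptor marco (-1.05 ± 0.50, adjusted p = 0.209) did not pass. The higher call, apoeb (1.35 ± 0.41, adjusted p = 0.0377), named after its values were seen, lost its call without mCherry-positive pool 5, 6 or 7 or double-negative pool 5, 8 or 10 (adjusted p = 0.0575 to 0.118), and was not made with the pool as a block (adjusted p = 0.116). Without mCherry-positive pool 7 the lower calls numbered 4.

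Antigen presentation by MHC class II was lower in 5 of 8 genes and higher in 0 (median -2.21). The invariant chains cd74a, with 834, 167, 110.5 and 738 TPM against 1194 to 3137 TPM with a median of 1661 (-2.41 ± 0.57, adjusted p = 0.00952), and cd74b, with 319, 179, 45.7 and 405 TPM against 676 to 1217 TPM with a median of 1052 (-2.43 ± 0.54, adjusted p = 0.00623), remained detectable in every mCherry-positive library. For cd74b the log2 fold change was -1.78 without mCherry-positive pool 7. The protease ctss2.2 (-2.23 ± 0.51, adjusted p = 0.00705) and the class II chain mhc2dab (-2.20 ± 0.44, adjusted p = 0.00302) were lower, as was cd83, named after its values were seen (-3.46 ± 0.94, adjusted p = 0.0213). The call of cd83 was lost without mCherry-positive pool 5 or 6 (adjusted p = 0.0702 to 0.101), and its log2 fold change was -2.49 without mCherry-positive pool 5 and -4.51 without mCherry-positive pool 9. The protease ctss2.1 (-1.52 ± 0.53, adjusted p = 0.0754) and the co-stimulator cd40 (-0.86 ± 0.40, adjusted p = 0.199) did not pass, and ctss2.1 did with the pool as a block (adjusted p = 0.0358).

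Neutrophil genes were lower in 9 of 11 and higher in 0 (median -2.72). Lysozyme, lyz, was listed at 0 in 3 mCherry-positive libraries and at 0.49 TPM in pool 7, against 3.47 to 74.2 TPM with a median of 43.3 (-4.71 ± 0.64, adjusted p = 0.000114). The collagenases MMP9, with 0.570, 0.530, 2.14 and 0.470 TPM against 17.8 to 141 TPM with a median of 34.7 (-4.69 ± 0.61, adjusted p = 7.05e-05), and mmp13a, with 4.17, 3.65, 2.68 and 0.050 TPM against 28.1 to 364 TPM with a median of 73.6 (-4.82 ± 0.76, adjusted p = 0.000399), were lower, as was the lectin receptor illr4 (-3.80 ± 0.54, adjusted p = 0.000154). None of these overlapped between the sorts. The oxidase subunit NCF1 (-2.12 ± 0.71, adjusted p = 0.0631) and the cytokine il1b (-1.82 ± 0.62, adjusted p = 0.0658) did not pass, though both were lower in mCherry-positive cells in all 4 pools with both sorts, and both passed with the pool as a block (adjusted p = 0.0205 and 0.0362).

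Of 18 lymphocyte genes 8 were lower and 1 higher (median -1.50). The NK-lysin genes nkl.2, with 0.650, 0, 0.600 and 0 TPM against 16.8 to 180.3 TPM with a median of 56.7 (-5.55 ± 0.51, adjusted p = 2.20e-06), and nkl.4 (-3.49 ± 0.39, adjusted p = 1.80e-05), and the interleukin 7 receptor il7r (-1.97 ± 0.35, adjusted p = 0.00118), were lower. GATA3, a T cell factor that endothelium also expresses, was higher, with 59.7, 50.1, 16.3 and 14.2 TPM against 2.62 to 14.4 TPM with a median of 4.92 (2.18 ± 0.48, adjusted p = 0.00585). The B cell gene cd79a (-2.03 ± 0.69, adjusted p = 0.0675) and il2rb (-2.03 ± 0.74, adjusted p = 0.087) did not pass, and cd79a did with the pool as a block (adjusted p = 0.024). Without mCherry-positive pool 6 or 7 the lower calls numbered 5.

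The erythroid list had the lowest median, -4.23, with 14 of 17 lower and 0 higher. Red cell genes were 9 of the 12 largest falls. The beta-type globin HBE1 (ENSDARG00000089087) had 242, 69.3, 366 and 3.74 TPM against 3139 to 74728 TPM with a median of 13517 (-7.48 ± 1.15, adjusted p = 0.000334), and hbaa2 0, 1.90, 27.3 and 0 TPM against 230.4 to 4228 TPM with a median of 936 (-8.19 ± 0.88, adjusted p = 1.04e-05). Globin levels varied widely between double-negative libraries, with pool 7 the highest for this HBE1 ID. The HBE1 IDs ENSDARG00000097238 (-7.59 ± 1.02, adjusted p = 9.34e-05) and ENSDARG00000069734 (-7.14 ± 0.75, adjusted p = 9.40e-06) also fell. Near-identical globin copies share reads, so single values are uncertain. Leaving out mCherry-positive pool 7 or 9 moved them: ENSDARG00000089087 was at -8.25 without mCherry-positive pool 7 and -6.16 without mCherry-positive pool 9, ENSDARG00000097238 at -8.30 without mCherry-positive pool 7 and -6.82 without mCherry-positive pool 9, ENSDARG00000069734 at -8.09 without mCherry-positive pool 7 and hbaa2 at -9.27 without mCherry-positive pool 7.

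Red cell genes of other functions moved with the globins. The anion exchanger SLC4A1 (ENSDARG00000012881) had 1.18, 0.690, 3.74 and 0 TPM against 58.4 to 469 TPM with a median of 163 (-6.20 ± 0.52, adjusted p = 8.18e-07), the carbonic anhydrase cahz 0.370, 1.35, 3.28 and 0 TPM against 43.6 to 527 TPM with a median of 123 (-6.08 ± 0.69, adjusted p = 2.07e-05), and the nucleotidase nt5c2l1 0.440, 1.81, 5.90 and 0 TPM against 29.3 to 1072 TPM with a median of 285 (-6.39 ± 0.85, adjusted p = 8.39e-05). The membrane skeleton gene epb41b fell as well (-5.91 ± 0.56, adjusted p = 2.77e-06). Of the 12 largest falls, DPT, tfa and hapln1a, a hyaluronan link protein at 0, 0.10, 0.550 and 0.140 TPM against 39.6 to 141 TPM with a median of 70.5 (-5.90 ± 0.50, adjusted p = 8.18e-07), were no red cell genes. The heme enzyme FECH (-1.71 ± 0.66, adjusted p = 0.109) and the erythroid factor gata1a (-1.22 ± 0.59, adjusted p = 0.221) did not pass, the latter with 23.8 TPM in mCherry-positive pool 5.

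Thrombocyte genes, those of the fish platelet counterpart, were lower in 6 of 10 and higher in 0 (median -2.28). The integrin itga2b (CD41) had 0.480, 0, 1.35 and 0.430 TPM against 8.94 to 28.8 TPM with a median of 18.1 (-3.61 ± 0.44, adjusted p = 4.63e-05). The von Willebrand receptor chains GP1BB (-3.49 ± 0.47, adjusted p = 9.34e-05) and gp9 (-3.06 ± 0.43, adjusted p = 0.000161) were lower without overlap, and f13a1b was lower with overlap (-2.87 ± 0.63, adjusted p = 0.00558), at -2.04 without mCherry-positive pool 7 and -3.62 without mCherry-positive pool 9. An ITGB3 ID (ENSDARG00000045070) (-1.70 ± 0.59, adjusted p = 0.0719) and THBS1 (-0.92 ± 0.44, adjusted p = 0.217) did not pass, and that ITGB3 ID did with the pool as a block (adjusted p = 0.0208). Of 6 Schwann and neural genes 1 was lower and 0 higher (median -0.75). The myelin gene mbpb had 1.49, 3.54, 0.140 and 2.95 TPM against 4.26 to 10.8 TPM with a median of 7.28 (-1.64 ± 0.48, adjusted p = 0.0312), a call lost without mCherry-positive pool 5 or 7 or double-negative pool 6, 9 or 10 (adjusted p = 0.0518 to 0.117). SNAP25 was listed at 0 in all 4 mCherry-positive libraries and did not pass (-1.12 ± 0.61, adjusted p = 0.284).

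**Figure D4:**
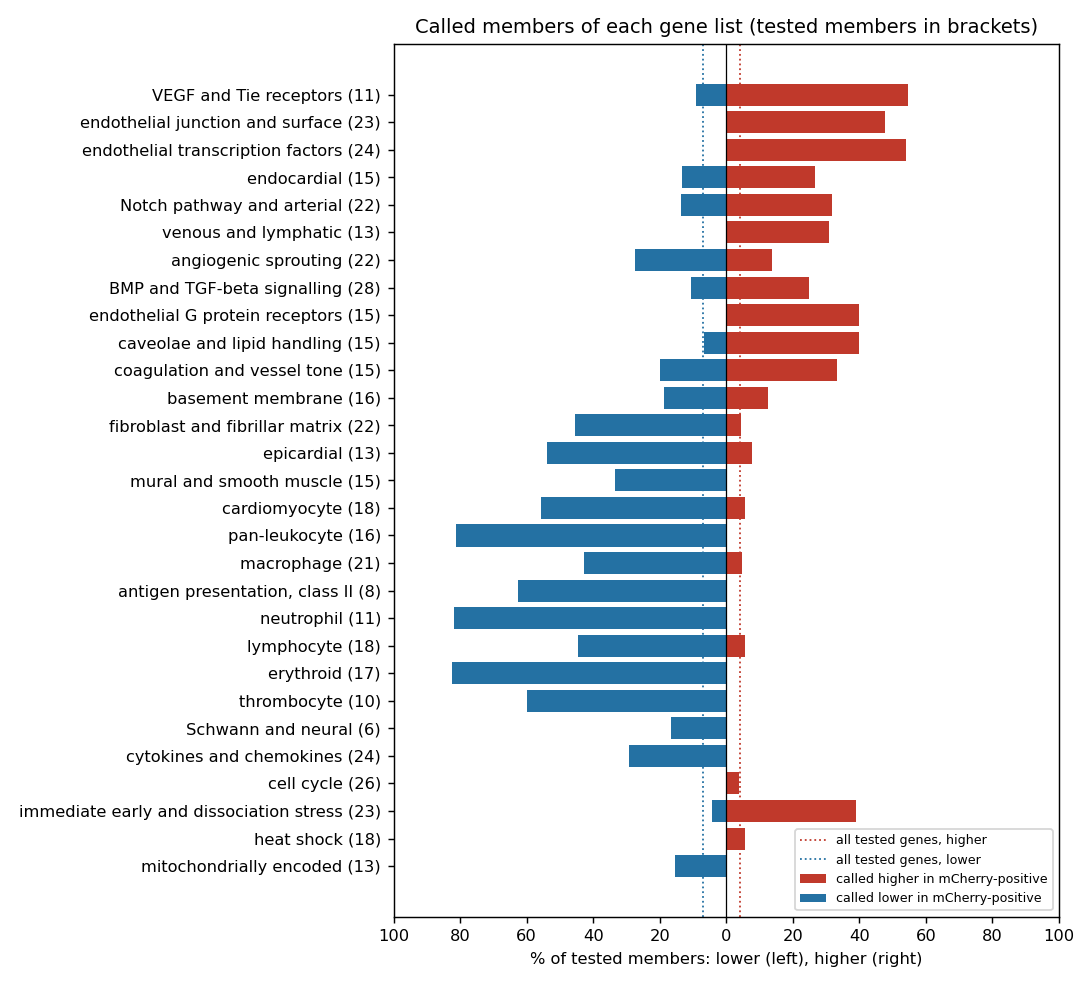
Share of the tested members of each of 29 gene lists that limma called higher (red, to the right) or lower (blue, to the left) in mCherry-positive libraries, with the number tested in brackets and dotted lines at the shares over all 19039 tested genes, 4.06% higher and 6.88% lower. Red prevails for the endothelial lists other than angiogenic sprouting and basement membrane, and for immediate early genes, and blue for the blood, muscle and connective tissue lists. The heat shock and cell cycle lists each show 1 member called higher and 0 lower. The lists share some genes.

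Cytokines and chemokines were lower in 7 of 24 genes and higher in 0 (median -1.32). The chemokine CXCL12 (ENSDARG00000037116) had 0, 0, 0.180 and 0.450 TPM against 13.3 to 29.1 TPM with a median of 18.1 (-4.13 ± 0.34, adjusted p = 5.88e-07), while both receptors given above differed in direction, CXCR4 being lower and ACKR3 higher. Interleukin 11, il11b, which zebrafish induce in regenerating tissue, had 0, 0, 0.120 and 0 TPM against 2.86 to 8.83 TPM with a median of 6.51 (-2.76 ± 0.41, adjusted p = 0.000281). The granulocyte factor csf3a (-2.69 ± 0.56, adjusted p = 0.00371) and the chemokine ccl25b (-2.54 ± 0.57, adjusted p = 0.00629) were lower too. The chemokine cxcl18b, at 135 ± 106 against 118 ± 122 TPM, overlapped (0.24 ± 0.65, adjusted p = 0.875). Without mCherry-positive pool 6 or 7 the lower calls numbered 4.

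Cell cycle genes were called in 1 of 26, no more than the 10.9% called over all tested genes, with a median of 0.18. The replication helicase gene MCM4 had 14.5, 10.7, 8.55 and 11.12 TPM against 1.87 to 8.15 TPM with a median of 4.02 (1.21 ± 0.37, adjusted p = 0.0393). The call was lost without mCherry-positive pool 5, 6 or 9 or double-negative pool 5, 6, 7 or 8 (adjusted p = 0.0603 to 0.106), after median-of-ratios scaling, and with the pool as a block (adjusted p = 0.0759). The replication clamp PCNA had 109, 160.4, 62.6 and 47.3 TPM against 23.6 to 72.5 TPM with a median of 49.7 (0.90 ± 0.40, adjusted p = 0.17) and HMGB2 331, 466, 199.7 and 285 TPM against 206 to 437 TPM with a median of 372 (-0.09 ± 0.36, adjusted p = 0.92), with overlap in both.

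Immediate early genes, which dissociation itself is known to induce, were higher in 9 of 23 and lower in 1 (median 0.89). The AP-1 subunits FOSB, with 1418, 1071, 985 and 1165 TPM against 151 to 503 TPM with a median of 347 (1.82 ± 0.37, adjusted p = 0.00322), JUNB (ENSDARG00000074378), with 1101, 996, 948 and 414 TPM against 146 to 351 TPM with a median of 287 (1.64 ± 0.32, adjusted p = 0.0026), and JUN, at 365 ± 79.7 against 155 ± 47.6 TPM (1.28 ± 0.30, adjusted p = 0.00943), lay above all double-negative libraries. EGR3 was lower, with 2.15, 3.01, 5.73 and 10.7 TPM against 13 to 37.1 TPM with a median of 23.0 (-2.04 ± 0.49, adjusted p = 0.00987). FOSL2 (0.98 ± 0.35, adjusted p = 0.0859) and ier2a (0.83 ± 0.32, adjusted p = 0.115) did not pass. The higher calls of the list numbered 12 within pools 5 to 8. They numbered 6 with the pool as a block, 3 without mCherry-positive pool 5, 4 without pool 6 and 5 without double-negative pool 5.

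The hsp70 genes were high in mCherry-positive pools 5 to 7 and low in mCherry-positive pool 9 and in double-negative pools 9 and 10. The inducible chaperone hsp70l had 10941, 10671, 8562 and 121 TPM against 56.2 to 2345 TPM with a median of 862 (2.70 ± 1.32, adjusted p = 0.223), and hsp70.1 8646, 7377, 5006 and 61.8 TPM against 20.6 to 1908 TPM with a median of 578 (2.80 ± 1.36, adjusted p = 0.223). In both, mCherry-positive pool 9 lay far below pools 5, 6 and 7, and the lowest double-negative libraries were pools 9 and 10. With the pool as a block hsp70.1 passed (adjusted p = 0.0481) and hsp70l did not (adjusted p = 0.101). Within pools 5 to 8 both passed, at 2.87 (adjusted p = 0.00315) and 2.82 (adjusted p = 0.00307). Over all pools the call of the list was the co-chaperone BAG3, with 374, 226, 201 and 53.0 TPM against 15.0 to 70.9 TPM with a median of 39.3 (2.16 ± 0.53, adjusted p = 0.0124), lost without mCherry-positive pool 5 (adjusted p = 0.057). The list of 18 thus had 1 higher call and 0 lower (median 0.63), 4 higher with the pool as a block, 5 within pools 5 to 8 and 8 without mCherry-positive pool 9. A count of 1 is near the share of 4.06% called higher over all tested genes. The part of pool or handling in the stress genes was not tested.

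**Figure D5:**
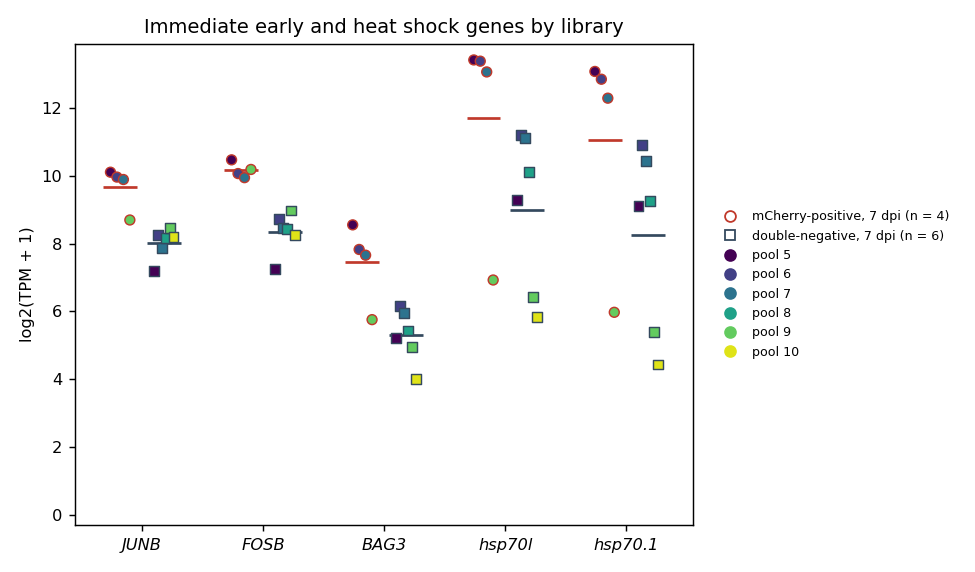
Level of 3 immediate early and chaperone-related genes and 2 hsp70 genes, as log2(TPM + 1), in each of the 4 mCherry-positive (circles) and 6 double-negative (squares) libraries, coloured by pool number, with a bar at each group's mean. JUNB is ENSDARG00000074378. FOSB and JUNB lie apart between the sorts, whereas hsp70l and hsp70.1 are low in mCherry-positive pool 9 and in double-negative pools 9 and 10.

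Transcripts of the mitochondrial genome were called lower in 2 of 13 genes and higher in 0 (median -0.95). They were mt-atp8, with 584, 233, 208 and 473 TPM against 489 to 1534 TPM with a median of 821 (-1.29 ± 0.39, adjusted p = 0.0377), and MT-CYB, with 802, 621, 351 and 686 TPM against 1166 to 2098 TPM with a median of 1313 (-1.24 ± 0.39, adjusted p = 0.0478). With median-of-ratios scaling all 13 were lower, and with the pool as a block 0 (adjusted p = 0.059 and 0.0612). The call of mt-atp8 was lost without mCherry-positive pool 6 or 7 or double-negative pool 5, 6, 9 or 10 (adjusted p = 0.0502 to 0.132) and that of MT-CYB without mCherry-positive pool 5, 6, 7 or 9 or double-negative pool 5, 6, 7, 8, 9 or 10 (adjusted p = 0.0513 to 0.158). The oxidase subunits MT-CO1 (-0.94 ± 0.37, adjusted p = 0.119) and MT-CO2 (-1.08 ± 0.42, adjusted p = 0.113) did not pass, although all 4 mCherry-positive libraries lay below all double-negative ones in both.

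Chosen examples of the genes lower in mCherry-positive cells differed in their level in the citrine-positive libraries. These are other libraries than the compared ones, but they are not independent of them. They carry pool numbers 7, 9 and 10, which compared libraries also carry, and they entered the model's estimate of spread. DPT averaged 547 ± 305 TPM there (n = 3), FN1 (ENSDARG00000006526) 3789 ± 740.0 and tfa 849 ± 255. Each citrine-positive library lay above all double-negative ones for tfa, whereas for DPT, at 277 to 878 TPM, and for that FN1 ID, at 3239 to 4630 TPM, the ranges overlapped. By contrast ptprc averaged 0.203 ± 0.197 TPM, hbaa1 8.51 ± 12.5 and lyz was listed at 0 in each. Among the higher genes, flt1 averaged 371 ± 46.1 TPM in the uninjured mCherry-positive libraries (n = 3) and 1.1 ± 1.26 in citrine-positive ones, and SPOCK3 2464 ± 734 and 2.55 ± 2.27. In the citrine-positive libraries these endothelial genes were thus below their double-negative levels of 24.1 ± 10.5 and 223 ± 96.1 TPM. These levels are descriptions of chosen genes. Neither the differences nor a grouping of all lower genes by citrine-positive level was tested here.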

How the data were processed

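RNA of sorted cells was sequenced in single reads of 60 bases after amplification of 0.2 to 0.6 ng of RNA, per the labels' protocols. The authors deposited 1 table of TPM for 31388 gene IDs in 16 libraries, made with CASAVA 1.8.2, cutadapt, RSEM 1.2.25 and Zv9, per the submitters' processing notes. RSEM estimates how reads that match several transcripts divide among them, which leaves the values of close paralogs uncertain. Depth cannot be recovered from TPM. Symbols were found for 25925 IDs. Where tested IDs share a symbol, the ID is printed.

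A floor of 1 TPM, reached in 3 or more of the 16 libraries, left 19039 IDs, which were fitted with limma 3.58.1 (R 4.3.3, trend option) on log2(TPM + 1), with a mean per group. The contrast was mCherry-positive minus double-negative at 7 days, two-sided, with calls made where the Benjamini-Hochberg adjusted p lay under 0.05. Fold changes on this scale understate those of low genes. The script was tested on simulated data. Figures and summaries used Python 3.11.15, numpy 2.4.6, pandas 2.3.3 and matplotlib 3.10.9.

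Libraries with the same number under the label pool were read as coming from the same pooled hearts, which the labels do not spell out. Deviations from the group means of same-numbered libraries correlated at 0.05 in pool 5, 0.15 in pool 6, 0.02 in pool 7 and 0.37 in pool 9. Libraries of different pools correlated from -0.28 to 0.36, the highest being mCherry-positive pool 9 with double-negative pool 10, so these values do not set same-numbered libraries apart. The block rests on the label, and the pool was run as a block in an alternative, as a fixed and as a random term.

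The gene lists, of 521 names matching 518 IDs, and the rule for named genes were chosen with earlier results of these data known. The rule took sort markers, the 12 largest rises and 12 largest falls without overlap and with at least 20 TPM in the higher group, all called members of the VEGF and Tie receptor and transcription factor lists, and up to 4 called and 2 abundant uncalled members of each list, of which 2 genes are not reported here. Alternatives were another scaling, the dominant IDs removed, other filters and pseudocounts (0.1 and 5), the 10 libraries alone, the pool as a block, pools 5 to 8, a fold minimum, and each library left out.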

Additional observations from a re-analysis of the deposited data

Results flagged for a closer look

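For each named gene, the 4 mCherry-positive libraries at 7 days and the 6 double-negative libraries were examined, 446 sets of values in all. In 29 sets the gap between 1 library and the nearest other was large against the range of its group, on log2(TPM + 1). Where values vary normally, chance alone gives about 1 in 20 such sets. That rate does not hold where a transcript was detected in only 1 library of the group. Such a set meets the rule at any level, as il7r did at 0.05 TPM in mCherry-positive pool 9. What set the flagged libraries apart was not tested.

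mCherry-positive pool 9 stood apart for 12 genes. It was low for the heat shock genes hsp70l (121 TPM, others 8562 to 10941) and hsp70.1 (61.8, others 5006 to 8646), for the immediate early gene JUNB (414, others 948 to 1101), and for the endothelial genes flt1 (66.6, others 225 to 278), wnk3 (90.8, others 185 to 213) and HEY2 (3.27, others 17.3 to 23.1). It alone held transcripts listed at 0 in the other 3 libraries: the smooth muscle gene acta2 at 27.6 TPM, mhc2dab at 2.24, RGS5 at 0.47, csf3a at 0.25, gp9 at 0.19 and il7r at 0.05. mCherry-positive pool 7 was high for MMP9 (2.14 TPM, others 0.47 to 0.57) and alone held TCF21 at 0.53, lyz at 0.49, nkl.4 at 0.48 and il11b at 0.12. mCherry-positive pool 5 was low for ETS1 (23.9 TPM, others 35.5 to 38.1) and high for the ADM gene ENSDARG00000069027 (4.35, others 0 to 0.23).

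Among double-negative libraries, pool 6 was high for CCM2 (61.4 TPM, others 21.8 to 31.8), ID3 (293, others 126 to 169) and MT-CYB (2098, others 1166 to 1431), and held lnc.30 at 0 (others 5.06 to 15.7). Double-negative pool 9 was high for SLC6A4 (207 TPM, others 81.8 to 101), csf1ra (81.3, others 53.5 to 62.4) and ephb4a (11.99, others 4.34 to 6.23). Double-negative pool 5 was low for GATA2 (0.82 TPM, others 3.17 to 5.84) and il2rb (3.38, others 16.3 to 24.9). Double-negative pool 8 was low for lyve1a (0.32 TPM, others 2.96 to 6.43).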

How the results depend on the processing

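Against 2083 calls in the comparison of mCherry-positive with double-negative cells (773 higher, 1310 lower), the settings that kept all compared libraries gave 1693 to 2542 calls, the highest with the pool as a random block. The lowest, with the pool as a fixed replicate block, was 1693 (529 higher, 1164 lower), of which 1505 were among the 2083. Median-of-ratios scaling gave 717 higher and 1801 lower, and removing the 2 dominant IDs 592 and 1228. Leaving out 1 library gave 1478 to 2522 calls, 511 to 969 higher and 877 to 1553 lower, the 511 without mCherry-positive pool 6. Of 165 called genes named in the text, 134 kept their call under all 21 alternatives, none reversed, 152 were also called with the pool as a fixed block, and 26 lost their call without at least 1 library. An alternative whose filter removed a gene was not counted as a loss for that gene. The fixed block ended 13 calls of named genes and made 9, each given with its p above, and changed no other. As a random block the pool ended 0 calls of named genes and made 11. Median-of-ratios scaling ended 6 and made 14. A named gene that did not pass is thus not shown to be unchanged. The genes that reversed were not called. Under scaling these were MYH11 (-0.16), COL4A1 (-0.074), ID3 (-0.072), NRP1 (-0.06) and cxcl18b (-0.021). With the pool as a fixed replicate block these were MYH11 (-0.086), cxcl18b (-0.034) and the FOXO1 gene ENSDARG00000099555 (-0.034). Within pools 5 to 8 these were MYH11 (-0.16), that FOXO1 gene (-0.055) and HMGB2 (0.058). With 1 library left out, the log2 fold change ran from -0.11 to 0.39 for MYH11, -0.29 to 0.12 for HMGB2, -0.091 to 0.88 for the POSTN gene ENSDARG00000043806, -0.03 to 0.57 for ID3, -0.19 to 0.71 for cxcl18b, -0.045 to 0.71 for that FOXO1 gene, -0.011 to 0.56 for NRP1 and -0.47 to 0.42 for the NOTCH1 gene ENSDARG00000103554. The cause was not tested. The number of libraries limits the precision, and counting error is unknown.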

Other observations

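Further genes stood out in the table of all genes and were chosen after their values were seen. Of the insulin and insulin-like growth factor axis, the receptor INSR (ENSDARG00000011948) had 81.9, 74.7, 80.7 and 87.7 TPM in mCherry-positive pools 5, 6, 7 and 9 and 12.6 to 27.0 TPM with a median of 17.1 in double-negative libraries (2.14 ± 0.28, adjusted p = 7.39e-05). The adaptor GRB10 (ENSDARG00000002013), which binds that receptor, had 516, 387, 332 and 319 TPM against 41.2 to 83.5 TPM with a median of 62.6 (2.62 ± 0.29, adjusted p = 1.36e-05), and the ligand igf2b 369, 433, 283 and 187 TPM against 54.4 to 164 TPM with a median of 101 (1.62 ± 0.34, adjusted p = 0.00437). The binding protein IGFBP1 ran the other way, at 9.86, 1.96, 2.14 and 0.840 TPM against 16.4 to 469 TPM with a median of 110.0 (-4.56 ± 0.84, adjusted p = 0.00147). None of these 4 overlapped between the sorts, which in part follows from their choice after the values were seen. The semaphorins SEMA3A (2.60 ± 0.46, adjusted p = 0.00105), sema3gb (2.24 ± 0.29, adjusted p = 6.80e-05) and SEMA4C (2.21 ± 0.29, adjusted p = 7.05e-05), guidance cues, were higher in mCherry-positive cells. So were the adenosine receptors ADORA2A (2.51 ± 0.31, adjusted p = 4.13e-05) and adora2ab (2.07 ± 0.39, adjusted p = 0.00183), at 67.7 ± 20 against 10.8 ± 1.8 TPM and 66.8 ± 31.6 against 15.0 ± 7.17 TPM. The serotonin transporter SLC6A4 was higher as well, with 419, 517, 558 and 761 TPM against 81.8 to 207 TPM with a median of 96.0 (2.36 ± 0.43, adjusted p = 0.00133).

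The fatty acid carrier fabp4a was among the abundant transcripts, with 4612, 3953, 2235 and 3240.1 TPM against 437 to 985 TPM with a median of 802 (2.28 ± 0.38, adjusted p = 0.000707). E-selectin (sele), a leukocyte adhesion molecule of activated endothelium, had 362, 505, 229 and 188 TPM against 36.8 to 145 TPM with a median of 77.2 (1.94 ± 0.37, adjusted p = 0.00187). Complement genes differed in direction: factor D (cfd) had 509, 359, 237 and 288 TPM against 32.6 to 75.5 TPM with a median of 57.8 (2.65 ± 0.35, adjusted p = 8.86e-05), while c4 had 0, 2.53, 1.31 and 2.26 TPM against 33.1 to 93.8 TPM with a median of 46.8 (-4.47 ± 0.42, adjusted p = 2.77e-06) and c6.1 0, 0.670, 0 and 3.52 TPM against 37.6 to 85.3 TPM with a median of 42.5 (-4.88 ± 0.42, adjusted p = 1.03e-06). The growth factor midkine (MDK, ENSDARG00000036036) was lower in mCherry-positive cells, with 170.0, 264, 145 and 149 TPM against 557 to 1589 TPM with a median of 1015 (-2.45 ± 0.39, adjusted p = 0.000429). Coagulation factor XIII A (F13A1, ENSDARG00000045453) was lower too, with 113, 20.4, 12.3 and 73.3 TPM against 222 to 560.5 TPM with a median of 302 (-3.08 ± 0.55, adjusted p = 0.00119). No library overlapped between the sorts in any of these 7 genes. As they were chosen after their values were seen, this is no separate evidence. Over all tested genes the groups did not overlap in 10.2%.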
